A study of Mus musculus with 12 samples.

Results

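The clustered protocadherins are cell surface proteins encoded by genes that lie side by side in the alpha, beta and gamma clusters of mouse chromosome 18. Every row of the table of normalized counts was taken whose symbol is Pcdha, Pcdhac, Pcdhb, Pcdhga, Pcdhgb or Pcdhgc followed by a number, and whose mean over the 12 libraries was above 0. This gave 56 of the 15759 rows, namely 11 alpha, 21 beta, 12 gamma A, 7 gamma B and 5 C-type genes (Pcdhac1, Pcdhac2, Pcdhgc3, Pcdhgc4 and Pcdhgc5). No measured difference between groups entered this rule, although it was set with earlier results of these data known. Pcdha4 and Pcdhb1 were not analysed here. The 12 libraries came from macrodissected cortex and cerebellum of SCA1 KI and wild-type (WT) mice, with 3 biological replicates of each region and genotype. SCA1 KI mice model spinocerebellar ataxia type 1 and are heterozygous for a knock-in allele of Atxn1 with 154 glutamine codons beside an allele with 2 (Atxn1 154Q/2Q), in every cell type that transcribes Atxn1. All mice were C57BL/6J and 12 weeks old. The labels list males, whereas the methods of the study describe both sexes combined. The columns carry region, genotype and a letter or number of their own, by which the libraries are named here.

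Clustered protocadherins bind identical copies of themselves on a neighboring membrane, and the set of isoforms on a neuron gives it a molecular identity by which its own branches recognize and avoid each other. Each alpha, beta, gamma A and gamma B gene is chosen stochastically in single neurons, with binding of CTCF and cohesin bringing a chosen promoter to distant enhancers. The C-type genes are used by many neurons without such a choice, and they have roles of their own: Pcdhac2 is needed for the tiling of serotonergic axons, Pcdhgc4 for the survival of interneurons, Pcdhgc3 for the arborization of cortical dendrites, and Pcdhgc5 is found at GABAergic synapses. In the cerebellum, the gamma cluster is known for self-avoidance of Purkinje cell dendrites.

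On GRCm38 with the GENCODE vM21 annotation, all 56 genes lie on the plus strand. The alpha cluster with both of its C-type genes spans 36930184 to 37187661, the beta cluster 37294812 to 37524479 and the gamma cluster with its 3 C-type genes 37661793 to 37841873. An alpha or gamma gene is a variable first exon that is spliced to constant exons, which 13 and 22 genes share, respectively. A beta gene has no shared constant exon, although Pcdhb21 and Pcdhb22 overlap each other. How the authors' counting treated reads on the shared exons is not given in the sources used here. Levels of single genes were therefore ranked per kilobase of exonic bases that no other gene of the table shares. Sums and shares of reads were not corrected for length. Annotated genes outside the table, on either strand, overlap some of these bases. They cover all of them in Pcdhga10 and leave 1268 of 4675 bases free in Pcdha11, 1821 of 3380 in Pcdhgc3 and 4606 of 5508 in Pcdhgc5. Strandedness was not stated, so reads of these genes cannot be told apart from those of their overlapping partners. Pcdhgb8 is annotated as a polymorphic pseudogene. The median GC content of the longest transcript was 45.6% for the beta genes, 47.3% for the alpha genes, 52.6% for gamma A, 53.1% for gamma B and 54.3% for the C-type genes, against 49.8% over 14640 tested genes with an annotated transcript.

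Reads on genes numbered 29520855 to 51311309 per library, and the 56 genes took 0.0676% to 0.0853% of them. The lowest value of any member was 12 reads, and all 56 passed the minimum mean of 10 normalized counts that left 15369 genes to test. Atxn1, the targeted gene, did not pass the test in cortex (7370 ± 815 normalized counts in WT and 6040 ± 1337 in SCA1 KI, SD, n = 3; limma log2 fold change, LFC, -0.31, adjusted p = 0.132) or cerebellum (3679 ± 54.9 and 3889 ± 221; LFC 0.08, adjusted p = 0.837). Its counts do not separate the alleles and so do not check the genotype labels. The tissue labels held: 8 Purkinje cell markers summed to 307080 to 408669 normalized counts in the cerebellar libraries and 40419 to 70757 in the cortical ones. Some libraries stood apart in their tissue content. WT cortex library B had the highest oligodendrocyte marker sum of the cortical libraries (125371 against 72852 to 89955 in the other 5). WT cerebellum library 2 had the lowest granule cell sum (144149 against 196585 to 208709), and SCA1 KI cerebellum library 1 had the lowest choroid plexus sum (1460 against 20590 to 78573). Between replicates, the median coefficient of variation of the members was 10.5% in WT cortex, 12.2% in SCA1 KI cortex, 9.63% in WT cerebellum and 5.52% in SCA1 KI cerebellum. Counting error alone would give medians of 5.87%, 5.25%, 6.14% and 5.04%.

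Levels per kilobase were highest among the C-type genes. In WT cortex the order began with Pcdhgc5 at 1039 ± 98.4 normalized counts per kilobase (SD, n = 3), Pcdhgc3 at 854 ± 8.18 and Pcdhac2 at 703 ± 43.3. In WT cerebellum it began with Pcdhgc3 at 1917 ± 210 and Pcdhac2 at 635 ± 50.4, whereas Pcdhgc5 had 107 ± 16.1 and ranked at 23 of 56. Pcdhac1 was the lowest C-type gene in all 4 groups (39.6 to 86.8 per kilobase). The median over a class was 703 for the C-type genes in WT cortex, 180 for gamma A, 114 for gamma B, 65.4 for beta and 61.6 for alpha.

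Within each class the same gene led in nearly every group. Pcdha12 was the highest alpha gene (193 per kilobase in WT cortex, 101 in WT cerebellum), Pcdhga11 the highest gamma A gene (364 and 460) and Pcdhgb6 the highest gamma B gene (198 and 406). Pcdhb9 led the beta genes in 3 groups (164 in WT cortex, 182 in WT cerebellum) and Pcdhb20 in SCA1 KI cerebellum (202). The lowest genes were the same in all 4 groups. Pcdha8 had 11.4 per kilobase in WT cortex and 10.5 in WT cerebellum, Pcdhb6 18.6 and 29.2, Pcdhga1 82.5 and 71.4, and Pcdhgb8 13.7 and 45.7. The highest alpha gene in WT cortex was thus 16.9 times the lowest, and the highest gamma A gene 4.41 times. These lengths rest on annotated untranslated exons, which differ between genes.

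**Figure D1:**
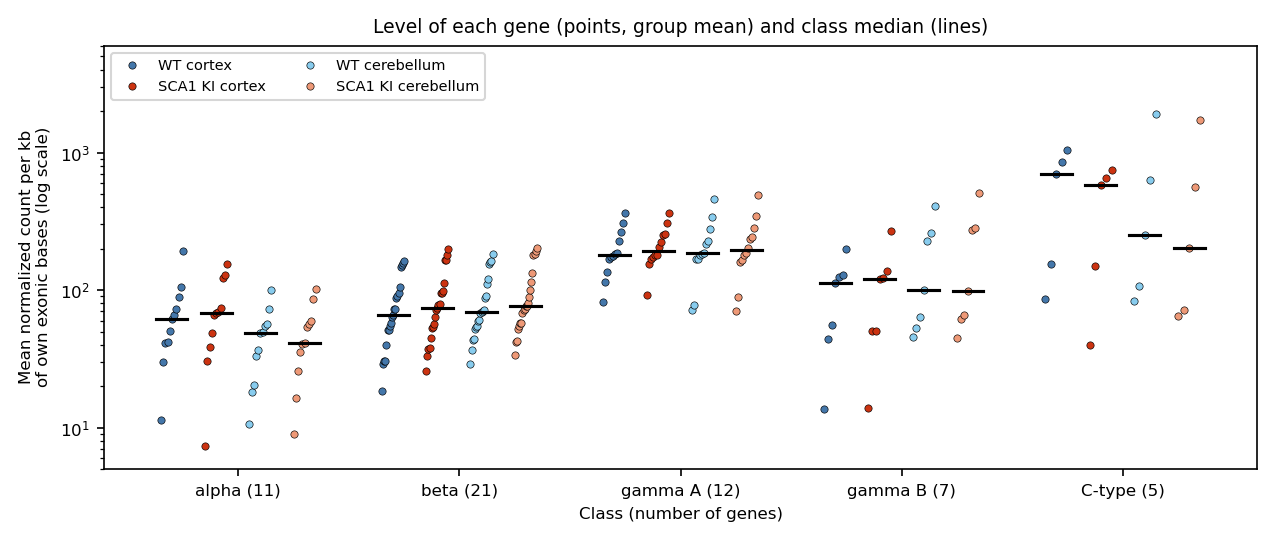
Mean normalized count per kilobase of unshared exonic bases (log axis) for each of the 56 genes (points) in the 4 groups (colors), by class, with the class median as a line. Median levels of the C-type genes (703 in WT cortex) lay above those of every other class in WT cortex and WT cerebellum, and the spread of the C-type genes was wider in cerebellum, where Pcdhgc3 reached 1917.

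Cortex was compared with cerebellum within each genotype to see how isoform use differs between the regions. Of the 56 genes, 16 were called higher and 18 lower in WT cortex than in WT cerebellum, where a call required that limma's adjusted p lie below 0.05 and that the LFC exceed 0.25 in size. This is 60.7% of the members, and 61.7% of all tested genes were called in either direction (31.0% higher, 30.7% lower), so the share was close to the background. The libraries of the regions did not overlap, with cortex higher, for 15 members (35.1% of all tested genes) and, with cortex lower, for 20 (34.8%). In bulk tissue, a difference in the number of cells of a type and a difference in RNA per cell cannot be told apart. The classes differed in direction, as a description with no test between classes.

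Alpha genes were mostly higher in cortex, with 8 of 11 called higher and 1 lower in WT (median LFC 0.47, against 0.00 over all tested genes). An LFC above 0 was found for 10 of the 11, and for 50.1% of all tested genes. Pcdha5 counted 232, 269 and 240 in WT cortex and 109, 126 and 112 in WT cerebellum. The groups lay apart, at an LFC of 1.09 ± 0.15 (SE, adjusted p = 3.53e-05). Pcdha12, the most abundant alpha gene, counted 472, 457 and 502 in WT cortex and 247, 258 and 241 in WT cerebellum (LFC 0.94 ± 0.15, adjusted p = 0.000117). Pcdha2 was the only alpha gene called lower in WT cortex, with 109, 106 and 93.4 against 130, 165 and 134 (LFC -0.46 ± 0.17, adjusted p = 0.0317). This call was lost without WT cortex library C, WT cortex library D or WT cerebellum library 4 (adjusted p 0.0536, 0.0983 and 0.125). In SCA1 KI mice 7 alpha genes were called higher and 0 lower, by limma, with 7 of 11 at an unadjusted p under 0.05, as 70.4% of all tested genes were. Pcdha11 had the smallest p after Pcdha5 there, with 155, 225 and 165 in cortex and 96.9, 64.5 and 67.8 in cerebellum (LFC 1.24 ± 0.19, adjusted p = 8.19e-05).

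Beta genes went both ways. In WT, 5 of 21 were called higher in cortex and 8 lower (median LFC -0.15). Among the 9 genes from Pcdhb14 to Pcdhb22, at the end next to the gamma cluster, 0 were called higher and 4 lower, and 8 of 9 had an LFC below 0 by limma. Among the 12 genes from Pcdhb2 to Pcdhb13, 5 were called higher and 4 lower. The split at Pcdhb14 was a choice made for description and was not tested. Pcdhb5 counted 368, 359 and 277 in WT cortex and 207, 189 and 178 in WT cerebellum (LFC 0.79 ± 0.16, adjusted p = 0.00072). Pcdhb13 was higher in WT cortex by an LFC of 0.40 ± 0.11 (adjusted p = 0.00492), with 379, 292 and 335 against 260, 271 and 227. In the other direction, Pcdhb16 counted 487, 468 and 425 in WT cortex and 740, 887 and 780 in WT cerebellum (LFC -0.80 ± 0.10, adjusted p = 1.73e-05). Pcdhb14 had 368, 338 and 329 against 536, 585 and 695 (LFC -0.80 ± 0.11, adjusted p = 2.6e-05). Groups did not overlap for any of these 4 genes. In SCA1 KI mice 4 beta genes were called higher in cortex, with the smallest p for Pcdhb5 (LFC 1.19 ± 0.16) and Pcdhb12 (0.43 ± 0.10), and 9 lower, with the smallest p for Pcdhb16 and Pcdhb14. The reads from Pcdhb14 to Pcdhb22 made up 52.3% ± 1.05 of all beta reads in WT cortex and 60.2% ± 1.12 in WT cerebellum (SD, n = 3), and the libraries of the regions did not overlap.

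Gamma A and gamma B genes, which alternate along the same cluster, differed in how they divided between the regions. Gamma A had few calls, with 1 of 12 genes called higher and 3 lower in WT cortex (median LFC -0.05). Pcdhga9 was the higher one (530, 363 and 306 in WT cortex, 236, 303 and 271 in WT cerebellum; LFC 0.53 ± 0.22, adjusted p = 0.0442). Its call was lost without WT cortex library B (LFC 0.31, adjusted p = 0.208) or C, WT cerebellum library 2 or 6, SCA1 KI cortex library F or SCA1 KI cerebellum library 5. Pcdhga10 (LFC -0.42 ± 0.14, adjusted p = 0.0172) and Pcdhga11 (LFC -0.34 ± 0.12, adjusted p = 0.0276) were lower in WT cortex, with overlapping libraries. Pcdhga10 kept no call without WT cortex library C, WT cortex library D or WT cerebellum library 4, and Pcdhga11 none without those 3 or WT cerebellum library 6.

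Gamma B genes were mostly lower in cortex, apart from Pcdhgb1, the one nearest the beta cluster. In WT, 4 of 7 were called lower and 1 higher, with LFCs from -1.73 to 0.36. Pcdhgb8 counted 29.7, 44.3 and 28.5 in WT cortex and 100, 118 and 123 in WT cerebellum (LFC -1.73 ± 0.20, adjusted p = 6.6e-06). Pcdhgb6 counted 548, 478 and 496 in WT cortex and 843, 1184 and 1100 in WT cerebellum (LFC -1.02 ± 0.11, adjusted p = 2.33e-06). Both sets of libraries lay apart. Pcdhgb2 and Pcdhgb7 were the other 2 called lower in WT (adjusted p = 9.58e-06 and 9.46e-06), and had the smallest p in SCA1 KI (LFC -1.17 ± 0.12, adjusted p = 2.21e-06, and -1.20 ± 0.13, adjusted p = 2.81e-06). Pcdhgb1 was higher in WT cortex, with 349, 355 and 309 against 226, 281 and 284 (LFC 0.36 ± 0.12, adjusted p = 0.0162), and lost its call without WT cortex library C (adjusted p = 0.0555) or WT cerebellum library 2 (0.0719). Along the cluster, the LFC of the 7 gamma B genes fell with their order (Spearman's rho -0.89 in WT and -0.75 in SCA1 KI, n = 7 genes of the same libraries, given as a description). The other classes showed weaker orders. In WT rho was 0.19 for alpha, -0.27 for beta and -0.33 for gamma A, whose genes alternate with gamma B. In SCA1 KI it was 0.24, -0.32 and -0.43. Gamma B reads were 22.9% ± 0.514 of the gamma A and gamma B reads in WT cortex and 31.6% ± 1.55 in WT cerebellum.

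The C-type genes held the largest regional difference of all members. Pcdhgc5 counted 6038, 6038 and 5099 in WT cortex and 593, 496 and 673 in WT cerebellum. Every cortical library thus lay far above every cerebellar one, at an LFC of 3.29 ± 0.12, a 9.77-fold difference (adjusted p = 1.14e-10). Its neighbor Pcdhgc3 went the other way, with 2878, 2867 and 2919 in WT cortex and 5667, 6978 and 6793 in WT cerebellum (LFC -1.16 ± 0.08, adjusted p = 6.41e-08). Pcdhgc4, which lies between them, counted 538, 538 and 541 against 896, 824 and 889 (LFC -0.69 ± 0.08, adjusted p = 8.86e-06). Pcdhgc5 thus made up 66.4% ± 2.41 of the reads of Pcdhgc3 and Pcdhgc5 in WT cortex and 8.38% ± 1.53 in WT cerebellum. The choroid plexus also contains Pcdhgc3 RNA, as background, and its 8 markers summed to 250 to 1785 normalized counts in WT cortex and 20590 to 75189 in WT cerebellum, none of them at 0. In WT cerebellum libraries 2, 4 and 6 that sum was 23278, 75189 and 20590, and library 4 also had the highest Pcdhgc3 count. In SCA1 KI cerebellum libraries 1, 3 and 5 it was 1460, 26604 and 78573, beside Pcdhgc3 counts of 6024, 5658 and 5695. The part of choroid plexus in the level of Pcdhgc3 was not tested. Pcdhac1 and Pcdhac2 were not called between the regions in WT (LFC 0.03 ± 0.20 and 0.15 ± 0.09, adjusted p = 0.888 and 0.141 by limma).

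**Figure D2:**
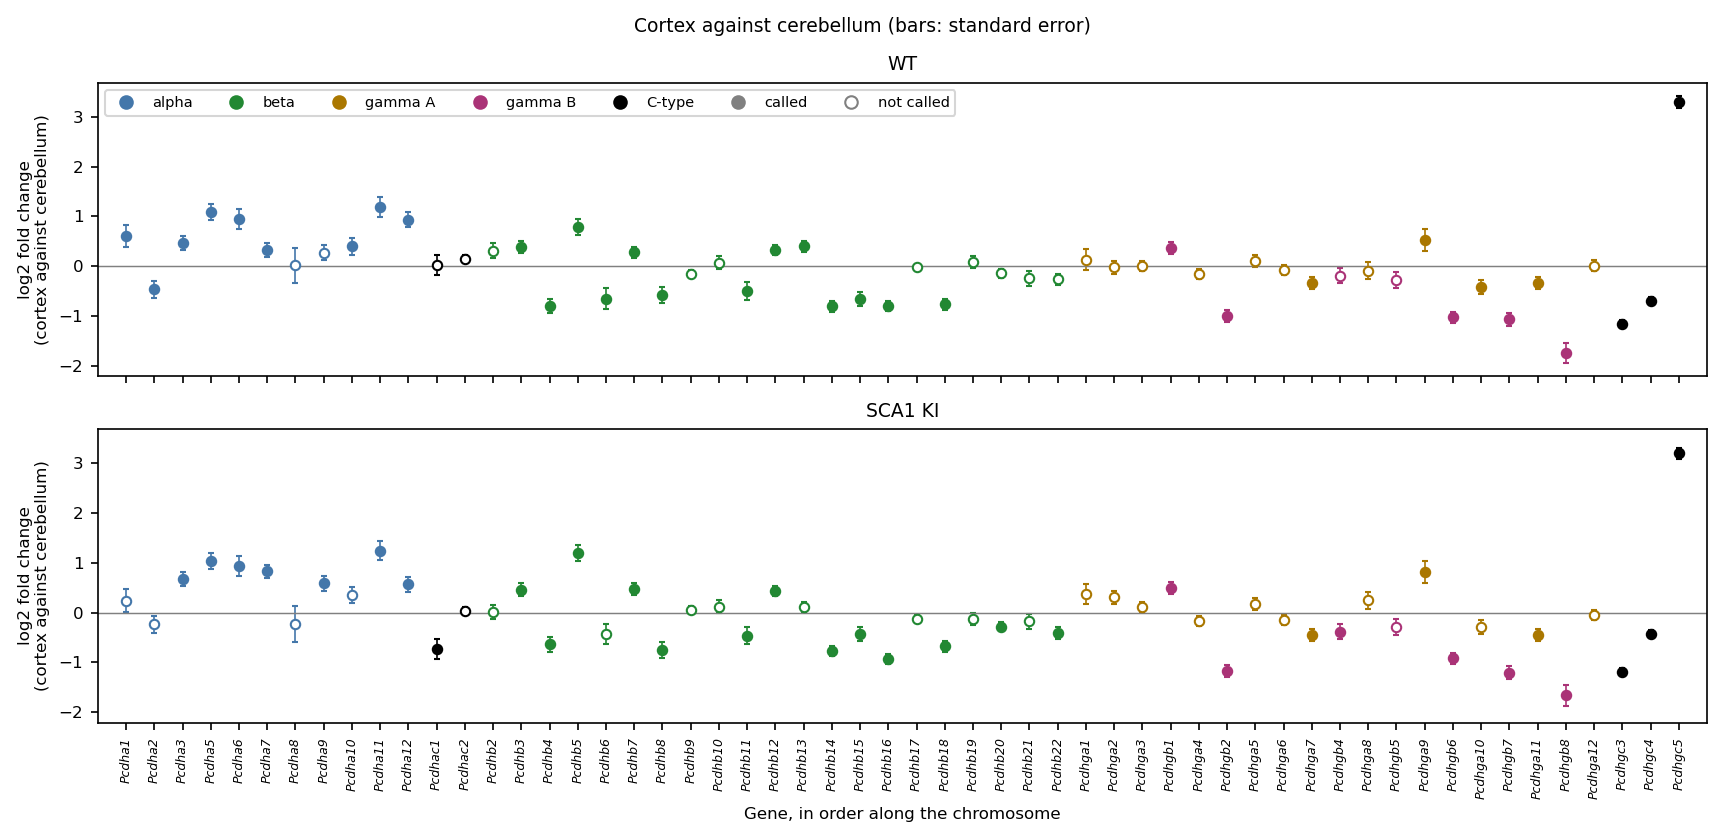
LFC of cortex against cerebellum (y axis, log2 scale) for each of the 56 genes in their order along the chromosome (x axis), in WT (top) and SCA1 KI (bottom), with standard errors; filled points were called. Pcdhgc5 stands at 3.29 in WT and 3.19 in SCA1 KI, most alpha genes lie above 0, and 6 of 7 gamma B genes lie below it in both panels.

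The same comparison was made between the SCA1 KI libraries, none of which is a WT library. The variance was estimated over all 12 libraries in 1 fit, so the calls in WT and SCA1 KI were not independent. In SCA1 KI, 14 members were called higher and 19 lower in cortex (58.9%, against 62.4% of all tested genes, 32.0% higher and 30.5% lower). The libraries did not overlap for 19 members higher in cortex and 18 lower, against 37.8% and 36.5% of all tested genes. The calls of 28 of the 56 genes were shared, 13 higher and 15 lower, as were those of 7917 of the 15369 tested genes. Called in opposite directions were 0 members and 77 of all tested genes. The shared calls were thus close to the background. The LFC had the same sign for 49 of 56 members (87.5%, and 87.3% of all tested genes), with a Pearson's r of 0.96 and a Spearman's rho of 0.93 across the 56 genes (0.92 and 0.90 across all tested genes), which share libraries and are not independent. Pcdhgc5 again counted far more in cortex (3304, 4051 and 3500 against 388, 363 and 436; LFC 3.19 ± 0.12, adjusted p = 1.47e-10). Pcdhac1 was called lower in cortex in SCA1 KI (LFC -0.73 ± 0.20, adjusted p = 0.00605).

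SCA1 KI was then compared with WT in each region. In cortex, 3 of the 5 C-type genes fell, and 3 genes of the stochastically chosen classes rose, by limma. Called genes were 6 of 56 (10.7%), against 15.6% of all tested genes, with 3 higher (background 4.82%) and 3 lower (background 10.8%). The number of calls was thus not above the background. The 3 members called lower were all C-type genes, and 0 of 5 C-type genes had an LFC above 0 (49.5% of all tested genes did), with a median of -0.29. The 3 called higher were an alpha, a beta and a gamma B gene.

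Pcdhgc5 (37819513 to 37841873) had 6038, 6038 and 5099 normalized counts in the WT cortex libraries and 3304, 4051 and 3500 in the SCA1 KI ones. The groups did not overlap, and the mean fell 1.58-fold (LFC -0.66 ± 0.12, adjusted p = 0.00207). Pcdhac1 (37090013 to 37187657) had 172, 216 and 278 in WT cortex and 96.6, 132 and 75.7 in SCA1 KI cortex, again without overlap (LFC -1.13 ± 0.20, adjusted p = 0.00204). Pcdhac2 had 2182, 1980 and 2226 against 1675, 1953 and 1611, where the highest SCA1 KI library lay just under the lowest WT one (LFC -0.29 ± 0.09, adjusted p = 0.0341). Its call was lost without WT cortex library B or D, SCA1 KI cortex library A or F, or SCA1 KI cerebellum library 1 (adjusted p 0.0515 to 0.114). Pcdhgc5 and Pcdhac1 kept their calls in all 22 alternative fits.

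Pcdhgc3 and Pcdhgc4 were not called in cortex. Pcdhgc3 had 2878, 2867 and 2919 in WT and 2273, 2589 and 2742 in SCA1 KI, groups that lay apart (LFC -0.19 ± 0.08, adjusted p = 0.138). Pcdhgc4 had 538, 538 and 541 against 558, 461 and 542, and its groups overlapped (LFC -0.06 ± 0.08, adjusted p = 0.699). Counting all 5, 4 C-type genes lay lower without overlap in SCA1 KI cortex, where 18.0% of all tested genes did.

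The 3 genes that rose in SCA1 KI cortex did so by less than 1.5-fold. Pcdha9 counted 221, 268 and 178 in WT and 277, 352 and 332 in SCA1 KI (LFC 0.54 ± 0.15, adjusted p = 0.0257). Its call was lost without WT cortex library B or D or SCA1 KI cortex library E or F (adjusted p 0.0574 to 0.0873). Pcdhb9, the highest beta gene per kilobase in cortex, counted 482, 504 and 518 against 596, 619 and 615 (LFC 0.28 ± 0.07, adjusted p = 0.012), and was not called with cortex fitted alone (adjusted p = 0.0821). Pcdhgb6, the highest gamma B gene, counted 548, 478 and 496 against 684, 711 and 664 (LFC 0.44 ± 0.11, adjusted p = 0.0137), and lost its call without WT cortex library C (adjusted p = 0.0571). For all 3 genes the lowest SCA1 KI library lay above the highest WT one, as for 5 members and 13.0% of all tested genes.

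The other beta genes leaned the same way without calls. In cortex 19 of 21 beta genes had an LFC above 0, with a median of 0.14, while 49.5% of all tested genes did, with a median of -0.00. Gamma A genes had 0 calls by limma, and 2 of 12 reached an unadjusted p under 0.05, as 30.5% of all tested genes did. After removal of the trend on length and GC content, Pcdhga2 (LFC 0.43, adjusted p = 0.0270) and Pcdhga10 (LFC 0.42, adjusted p = 0.0355) were called higher in SCA1 KI cortex. Without WT cortex library B, which had the highest counts of both, Pcdhga1 (LFC 0.52, adjusted p = 0.021) and Pcdhga2 (LFC 0.51, adjusted p = 0.00285) were called higher in SCA1 KI cortex. These genes were singled out after their values were seen.

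In cerebellum, Pcdhgc5 was the only one of the 56 genes that limma called, and it fell, as it did in cortex. By edgeR 3 members were called and by DESeq2 4. The share called by limma was 1.79%, against 5.36% of all tested genes (0.917% higher, 4.44% lower). Pcdhgc5 counted 593, 496 and 673 in WT cerebellum and 388, 363 and 436 in SCA1 KI cerebellum. The groups lay apart, and the mean fell 1.48-fold (LFC -0.56 ± 0.12, adjusted p = 0.0145). The call was lost without WT cerebellum library 6 (adjusted p = 0.0623), SCA1 KI cerebellum library 1 (0.0616) or SCA1 KI cerebellum library 3 (0.0735).

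The other C-type genes had an LFC below 0 in cerebellum as well. Pcdhgc4 counted 896, 824 and 889 in WT and 732, 664 and 713 in SCA1 KI, without overlap, and was not called by limma (LFC -0.31 ± 0.08, adjusted p = 0.051). It was called by edgeR (adjusted p = 0.0491), by DESeq2 (0.01003), with the region alone (0.0347) and with a minimum mean of 100 (0.0445). Pcdhac1 counted 188, 232 and 220 against 162, 175 and 157, also without overlap (LFC -0.37 ± 0.20, adjusted p = 0.387). Pcdhac2 (1776, 1912 and 2080 against 1731, 1778 and 1618) and Pcdhgc3 (5667, 6978 and 6793 against 6024, 5658 and 5695) overlapped between the genotypes, with LFCs of -0.17 ± 0.09 and -0.16 ± 0.08 (adjusted p = 0.344 and 0.376 by limma). The median over the 5 genes was -0.31, against -0.00 over all tested genes.

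**Figure D3:**
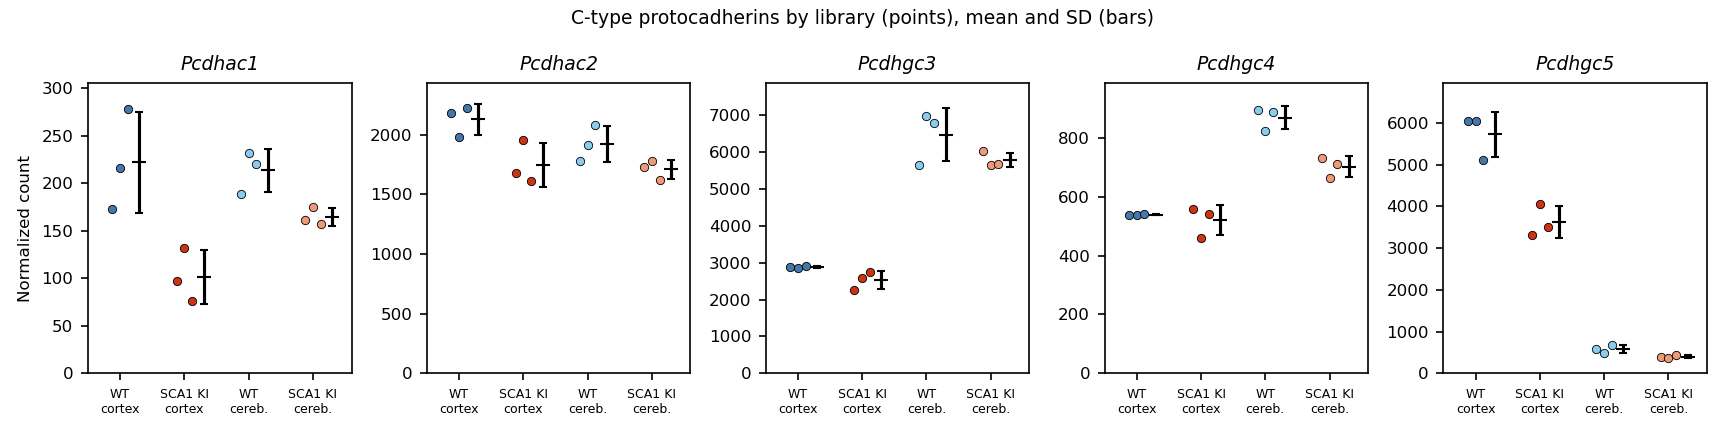
Normalized counts (y axes from 0, on separate scales) of the 5 C-type genes in each library (points) of the 4 groups (x axis), with mean and SD as bars, n = 3. Pcdhgc5 lies lower in SCA1 KI than in WT in both regions without overlap, and Pcdhgc4 is separated by genotype in cerebellum but not in cortex.

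Among the remaining classes in cerebellum 0 genes were called by limma, and 7 of 51 reached an unadjusted p under 0.05, as 17.3% of all tested genes did. Of the beta genes, 19 of 21 had an LFC above 0 (48.7% of all tested genes did), with a median of 0.15. In 9 of 21 the SCA1 KI libraries all lay above the WT ones, as in 14.3% of all tested genes. The nearest to a call were Pcdhb20 (565, 590 and 580 in WT, 725, 759 and 677 in SCA1 KI; LFC 0.31 ± 0.09, adjusted p = 0.0589) and Pcdhb13 (260, 271 and 227 against 318, 326 and 342; LFC 0.38 ± 0.11, adjusted p = 0.0608), a pair picked after their values were seen. DESeq2 called both of them, and edgeR called Pcdhb20. Pcdhgb6 counted 843, 1184 and 1100 in WT and 1305, 1283 and 1303 in SCA1 KI (LFC 0.33 ± 0.11, adjusted p = 0.107). WT cerebellum library 2, with the lowest granule cell marker sum, had the lowest value for it. Without that library the LFC was 0.19 (adjusted p = 0.330), and without WT cerebellum library 4 it was 0.43 and called (adjusted p = 0.0360).

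**Figure D4:**
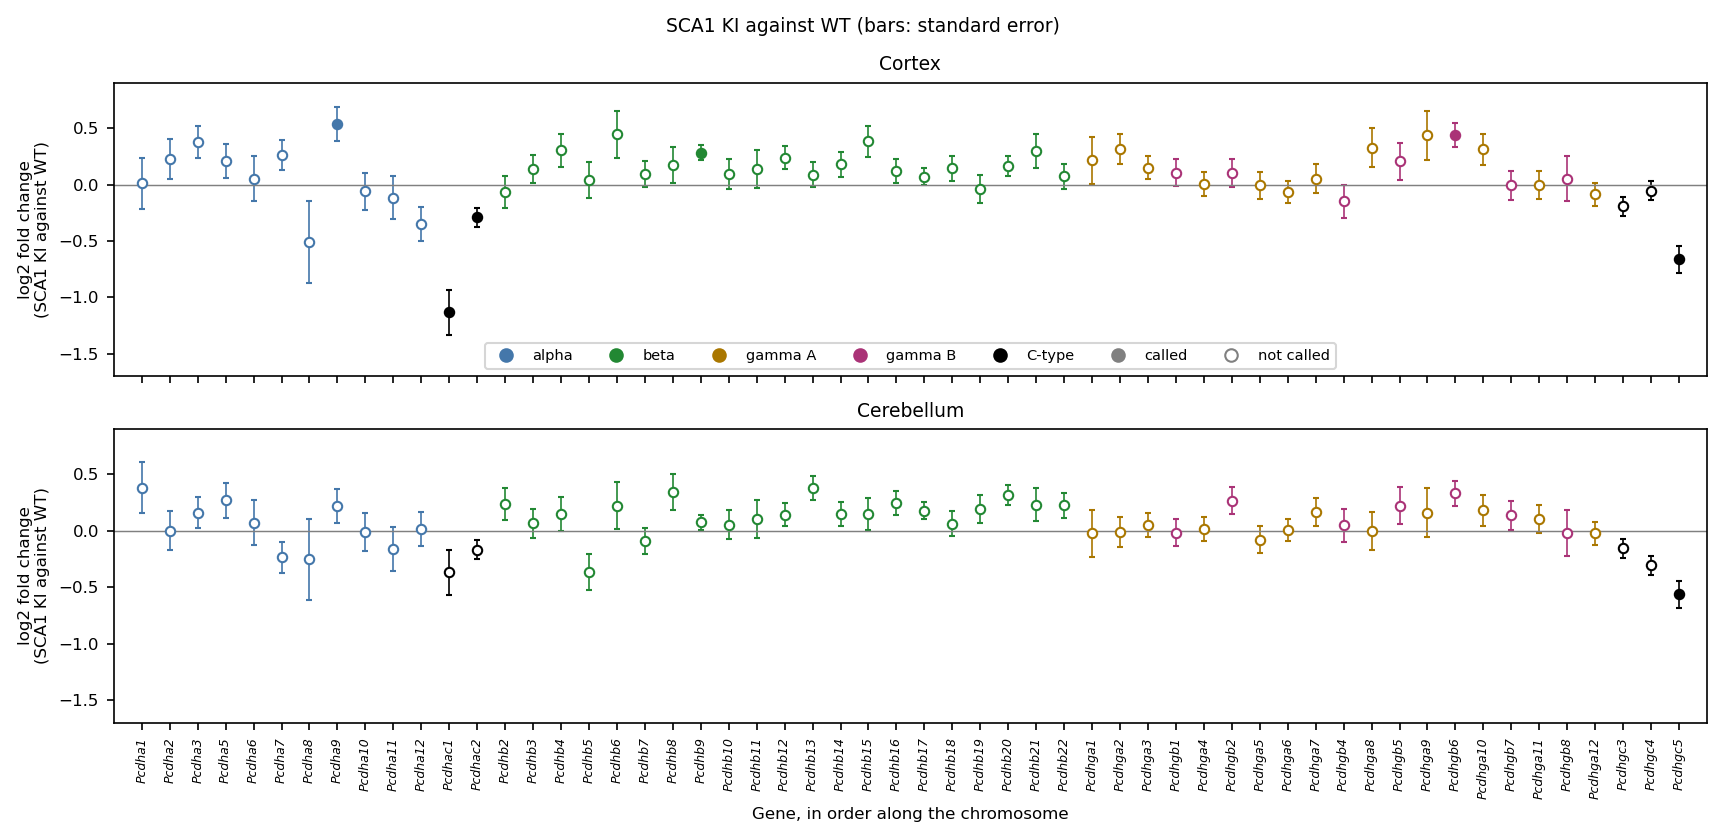
LFC of SCA1 KI against WT (y axis, log2 scale) for each of the 56 genes in their order along the chromosome (x axis), in cortex (top) and cerebellum (bottom), with standard errors; filled points were called by limma (6 in cortex, 1 in cerebellum). The 5 C-type genes (black) lie below 0 in both panels, and 19 of 21 beta genes (green) lie above 0 in each.

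Whether the genotype difference itself differed between the regions was tested as an interaction. By limma 0 of the 56 genes passed an adjusted p of 0.05, which 8.15% of all tested genes did (3.26% with a higher LFC in cortex, 4.89% with a lower one), and edgeR and DESeq2 also called 0. At an unadjusted p under 0.05 there were 3 of 56, where 21.4% of all tested genes were, namely Pcdhac1 (difference of the LFCs, cortex minus cerebellum, -0.76 ± 0.29, adjusted p = 0.136), Pcdha7 (0.50 ± 0.19, adjusted p = 0.149) and Pcdhb9 (0.21 ± 0.10, adjusted p = 0.231). Without SCA1 KI cortex library E, Pcdhac1 passed (-0.97, adjusted p = 0.0406), and without WT cortex library B, Pcdhga2 did (0.52, adjusted p = 0.0212). The LFCs of the regions had the same sign for 40 of 56 members (71.4%) and for 57.6% of all tested genes. Across the 56 genes Pearson's r was 0.61 and Spearman's rho 0.47, against 0.09 and 0.19 across all tested genes, which is a description over genes of the same 12 libraries. Within the classes Pearson's r was 0.47 for alpha, 0.14 for beta, 0.35 for gamma A, 0.67 for gamma B and 0.54 for C-type genes.

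Summed over a class, the reads showed the same division. The C-type sum was 11808, 11638 and 11063 in WT cortex and 7907, 9186 and 8470 in SCA1 KI cortex, a log2 ratio of -0.43 without overlap (11503 ± 391 and 8521 ± 641, SD, n = 3). Pcdhgc5 alone gave 5725 and 3618 of these means, and so most of the difference. In cerebellum it was 9120, 10442 and 10655 in WT and 9038, 8638 and 8618 in SCA1 KI, a log2 ratio of -0.20 without overlap, although the highest SCA1 KI library lay close to WT cerebellum library 2. The beta sum in cerebellum was 7474 ± 126 in WT and 8345 ± 195 in SCA1 KI, 11.6% higher with the libraries apart. In cortex the beta sum was 6608 ± 369 and 7300 ± 408, and the groups overlapped. The gamma B sum was higher in SCA1 KI in cortex (1917 ± 125 and 2154 ± 46.4) and cerebellum (3196 ± 449 and 3680 ± 123), with the libraries apart in each region. In cerebellum WT libraries 4 and 6 (3413 and 3497) lay close to SCA1 KI library 5 (3565), and WT library 2 was far lower (2680). Alpha and gamma A sums overlapped between the genotypes in both regions. No test was run on the sums, since their members were chosen as a list.

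C-type genes took a smaller share of their clusters in SCA1 KI. Of the gamma cluster reads, they held 52.3% ± 1.75 in WT cortex and 42.4% ± 0.854 in SCA1 KI cortex, and 44.1% ± 0.314 and 38.9% ± 1.04 in cerebellum. Of the alpha cluster reads they held 54.4% ± 3.48 and 47.1% ± 0.918 in cortex, and 62.5% ± 1.75 and 58.3% ± 0.605 in cerebellum. WT and SCA1 KI libraries lay apart in all 4 of these comparisons, on which no test was run. Pcdhgc5 was 66.4% ± 2.41 of the Pcdhgc3 and Pcdhgc5 reads in WT cortex and 58.8% ± 2.50 in SCA1 KI cortex, also without overlap. In cerebellum the same share was 8.38% ± 1.53 in WT and 6.39% ± 0.616 in SCA1 KI, and the libraries overlapped. These shares are of reads, without correction for length. Per kilobase of unshared exonic bases, the mean of Pcdhgc3 lay above that of Pcdhgc5 in SCA1 KI cortex (750 ± 70.8 and 657 ± 70.3). In WT cortex it lay below (854 ± 8.18 and 1039 ± 98.4).

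**Figure D5:**
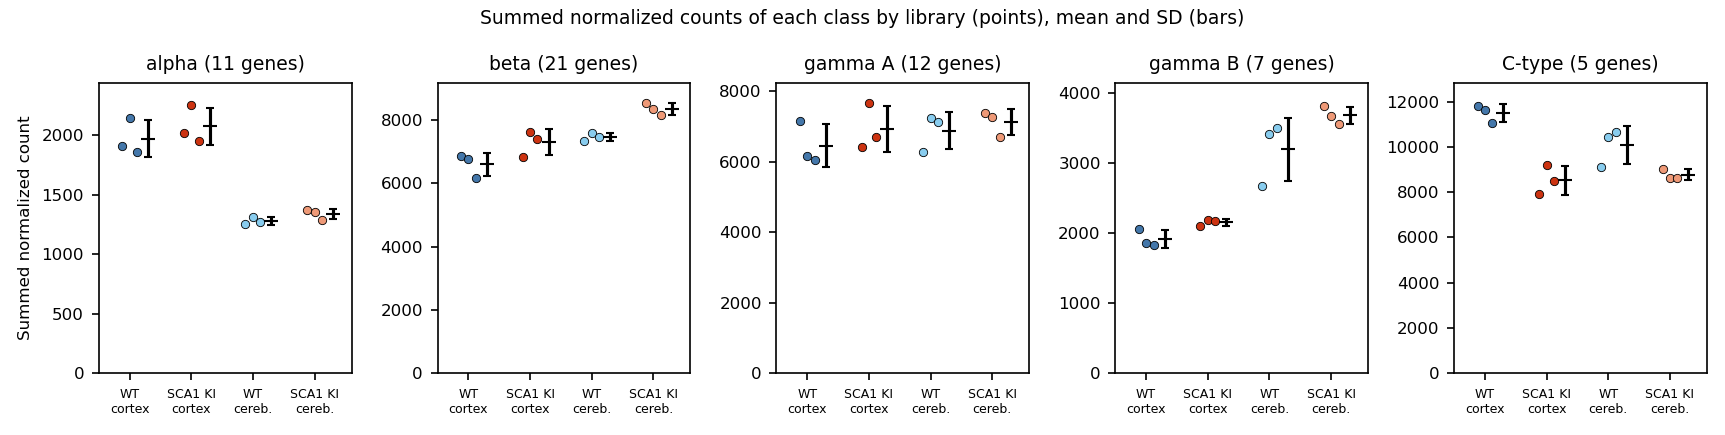
Summed normalized counts (y axes from 0, on separate scales) of the alpha, beta, gamma A, gamma B and C-type genes in each library (points) of the 4 groups (x axis), with mean and SD as bars, n = 3. The C-type sum is lower in SCA1 KI than in WT in both regions, and the beta sum is higher in SCA1 KI cerebellum than in WT cerebellum.

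Markers of cell types moved with the genotype in the same libraries. In cortex the 8 markers of forebrain interneurons summed to 23562 to 25832 in WT and 11580 to 12823 in SCA1 KI (1 of 8 called lower), and the 8 of cortical excitatory neurons to 100035 to 100419 and 63137 to 75082 (2 of 8 lower). Lamp5 is in both lists and gave most of the fall in the interneuron sum. Its mean was 11815 in WT cortex and 3126 in SCA1 KI cortex, and limma did not call it (adjusted p = 0.0764). Dlx1 (912 and 1368) and Dlx2 (264 and 519) of the interneuron list had higher means in SCA1 KI cortex, also without calls. The other genes of that list had lower means. The 8 Purkinje cell markers, which cortical neurons also transcribe in part, summed to 65410 to 70757 and 40419 to 46322 (6 of 8 lower), and the 5 astrocyte markers to 50262 to 55335 and 33383 to 43584 (3 of 5 lower). The 6 hippocampal markers summed to 5021 to 6642 in WT cortex and 2379 to 3889 in SCA1 KI cortex (1 of 6 lower), and the 8 of cerebellar granule cells to 64026 to 66218 and 44975 to 50854 (1 of 8 lower). Most of that granule cell sum was Slc17a7, which is also in the excitatory list (means of 61279 in WT cortex and 43454 in SCA1 KI cortex). Slc17a7 was the granule cell marker called lower, so this sum does not show a separate cell type moving. Of 7 tested markers of midbrain, thalamus and striatum, 2 were called higher and 1 lower. In cerebellum the interneuron sum was 1596 to 3130 in WT and 1002 to 1171 in SCA1 KI (3 of 8 lower), the midbrain, thalamus and striatum sum 8546 to 8660 and 4637 to 5269 (3 of 7 lower), and the oligodendrocyte sum 161135 to 246333 and 136923 to 137467 (2 of 6 lower). Also apart in cerebellum were the sums of 5 astrocyte markers (96669 to 99595 and 86924 to 90285, 1 of 5 lower), 5 microglial markers (1932 to 2753 and 1757 to 1857, 1 of 5 lower) and 5 serotonergic markers (1209 to 1487 and 939 to 1079, 1 of 4 tested lower). None of these markers was at 0 in all libraries of a group, apart from Fezf2, of the excitatory list, in SCA1 KI cerebellum and Barhl1, of the granule cell list, in WT cortex. The part of these differences in the results for Pcdhgc5, Pcdhac1 and the other members was not tested.

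Genes around the clustered protocadherins were followed with 3 lists. The 12 non-clustered protocadherins are encoded outside these clusters and carry no shared constant exons. In SCA1 KI cortex 1 of them was called higher and 2 lower (median LFC -0.00), where 4.82% and 10.8% of all tested genes were called. Pcdh11x rose (LFC 0.82 ± 0.22, adjusted p = 0.0233), and Pcdh7 (-0.57 ± 0.16, adjusted p = 0.0283) and Pcdh1 (-0.46 ± 0.13, adjusted p = 0.0283) fell. In cerebellum 0 were higher and 3 lower by limma, against 0.917% and 4.44% of all tested genes (median -0.35, 3 of 12 at an LFC above 0, against 48.7%). Those lower were Pcdh7 (-0.78 ± 0.16), Pcdh8 (-0.80 ± 0.19) and Pcdh19 (-0.71 ± 0.18). Each had a higher mean in WT cortex than in WT cerebellum (10450 and 3124, 1433 and 251, and 2284 and 723). The part of tissue content in their fall was not tested.

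Among 21 tested genes of promoter choice, looping and silencing, such as Ctcf, cohesin subunits, Smchd1 and Dnmt3b, only Stag1, a cohesin subunit, was called in SCA1 KI cortex (1427 to 1535 in WT and 1708 to 1856 in SCA1 KI; LFC 0.26 ± 0.06, adjusted p = 0.0152). In cerebellum limma, edgeR and DESeq2 called 0, with 4 of 21 at an unadjusted p under 0.05, and 20 of 21 had an LFC above 0 (median 0.12), against 48.7% of all tested genes. Between the regions, limma called 14 of these 21 lower in WT cortex than in WT cerebellum and 0 higher, against 30.7% and 31.0% of all tested genes.

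Of 19 partners in signaling and cleavage of the protocadherin cytoplasmic domains, 5 fell and 1 rose in SCA1 KI cortex, where 10.8% and 4.82% of all tested genes did. Cyfip2 (LFC -0.49 ± 0.06), which belongs to the WAVE complex of actin nucleation, fell, as did the focal adhesion kinase gene Ptk2 (-0.39 ± 0.07) and the protein kinase C gene Prkca (-0.56 ± 0.11), at adjusted p of up to 0.00346 by limma. The others that fell, named after their values were seen, were Wasf1 (-0.28 ± 0.07, adjusted p = 0.0136) and Brk1 (-0.26 ± 0.08, adjusted p = 0.0433), also of the WAVE complex. Marcks, an actin-binding substrate of protein kinase C, rose in cortex (0.52 ± 0.11) and cerebellum (0.73 ± 0.11). Ptk2b, a kinase that alpha and gamma protocadherins are known to inhibit, fell in cerebellum, from 435 to 474 in WT to 104 to 183 in SCA1 KI (LFC -1.75 ± 0.16). Its mean in WT cortex was 20606. Marker sums of forebrain interneurons and of midbrain, thalamus and striatum were also lower in the SCA1 KI cerebellar libraries. The part of tissue content in the fall of Ptk2b was not tested.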

How the data were processed

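Per the labels and the methods, the authors used STAR for alignment (mm10), featureCounts for gene counts and DESeq2 for normalization. The deposited values are thus a signal, namely reads scaled by a library's size factor. In all 12 libraries 100% of the values were whole reads within 0.05 of a read. Recovered reads went to edgeR 4.0.16 and DESeq2 1.42.0, which called 6 and 6 members in cortex and 3 and 4 in cerebellum.

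Genes with a mean of at least 10 (15369) entered the main test, which took log2(normalized count + 1) from all 12 libraries into limma 3.58.1 (R 4.3.3), with a mean for each of 4 groups and a trended empirical Bayes variance. Calls needed a Benjamini-Hochberg adjusted p under 0.05 and, except for the interaction, an absolute LFC over 0.25. Fold changes on this scale understate those of low genes. With 3 libraries a group, p-values weigh a difference against the spread between replicate libraries. That spread was pooled over the 4 groups and moderated by the trend over all tested genes. A p-value for cortex thus rests in part on cerebellar libraries, and the reverse. No pair of replicates was a duplicate (chi-square of 7.59 to 36.9 for each gene).

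The members and lists were chosen with earlier results of these data known. Genes named were all members called between genotypes, the C-type genes, in each class the 2 called genes of smallest p in each direction between regions and the highest and lowest per kilobase, and up to 4 called genes per list and region. GENCODE vM21 gives 2 genes the symbol Pcdha11, and the one starting at 37005203 was named Pcdha10 from RefSeq. On simulated counts for cortex with 200 of 15369 genes changed 1.5-fold, limma recovered 74.5% and made 15 false calls. Alternatives were no filter, a minimum mean of 100, pseudocounts of 0.5 and 5, centring on the median, no fold limit, each region alone, removal of the trend on length and GC content, and leaving out each library. Sequences of the members are not shown.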

Additional observations from a re-analysis of the deposited data

How the results depend on the processing

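In cortex, 6 members were called between genotypes, but 3 with the region fitted alone and 8 after removal of the length and GC trend (Pcdhac2 lost, and Pcdha3, Pcdhga2 and Pcdhga10 added), while leaving out 1 library gave 4 to 6. In cerebellum the 1 called member became 2 with a minimum mean of 100, 3 with centring on the median, 3 with the region alone, 4 after removal of the length and GC trend, 3 by edgeR and 4 by DESeq2. Leaving out 1 library gave 0 to 3 there, with 0 without WT cerebellum library 6 or SCA1 KI cerebellum library 1 or 3, and 3 without SCA1 KI cortex library A or E. The interaction gave 0 to 1, with 1 without WT cortex library B or SCA1 KI cortex library E. Between the regions, leaving out 1 library gave 24 to 33 calls in WT (34 with all) and 29 to 35 in SCA1 KI (33 with all). The log2 ratio of the C-type sums between the regions, 0.19 in WT and -0.04 in SCA1 KI, became 0.32 and 0.17 as a mean of log2 values. Pcdhgc4 in cortex (LFC -0.06) turned to 0.077 after removal of the length and GC trend and to 0.029 without SCA1 KI cortex library E. Pcdhac2 lost its call in cortex with the region alone (adjusted p = 0.0932) and after removal of that trend (LFC -0.19, 0.180), and Pcdha9 (0.0797) and Pcdhb9 (0.0821) with the region alone, by limma. The cause was not tested. Beta genes kept 19 or 20 of 21 LFCs above 0 in both regions under the 10 alternatives with all libraries, and C-type genes 0 or 1 of 5, while leaving out 1 library gave 17 to 20 and 0 or 1. No paired analysis was possible because the columns carry letters and numbers of their own, not the replicate numbers of the labels. Alpha genes with few reads (Pcdha8, SE 0.36 on the log2 scale) limit what could be detected at this depth.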
